A study of Mus musculus with 21 samples.

Results

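Myelin is the fatty sheath that oligodendrocytes wrap around axons in the brain, and 9 genes whose RNA marks the mature, myelin-making stage of these cells were followed: Mobp, Mal, Mbp, Mog, Mag, Cnp, Ermn, Ugt8a and Bcas1. They were chosen by name, all 9 were found among the 41128 gene symbols of the deposited table, and all 9 passed the filter on low values. The tissue was the striatum, a part of the forebrain whose main cells are medium spiny neurons, crossed by bundles of myelinated fibres. RNA was sequenced in 21 libraries of wild-type mice. The labels describe the injection of an adeno-associated virus, a gene carrier that does not replicate, 3 weeks before collection, in the same words for every library, and do not say whether WT mice received a virus. The libraries of a first set, here called set A, carried the label WT, Cas9 or GCas9 (3 libraries each), and those of set B the label GFP, Cas9 or GCas9 (4 libraries each). Cas9 is the nuclease of genome editing and GFP a fluorescent protein that edits nothing. The labels leave the name GCas9 unexplained. As background, the study is known to have joined Cas9 to a piece of Geminin, which makes the protein short-lived. All groups share the wild-type background, and no other allele or agent is named. The labels give the age as 3 weeks in one field and 3 months in another, and they name no promoter, serotype or transduced cell type. Nothing in them says that libraries came from separate animals, so the p-values measure the spread between libraries. Set membership was taken from how the titles are numbered, the scaling of the table differs in the same way, and levels were read within a set.

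In an oligodendrocyte, precursor cells first leave the cell cycle, then pass through a newly formed stage, and then switch on the myelin genes together under the transcription factors Olig1, Olig2, Sox10 and Myrf. Mbp and Mobp hold the cytoplasmic faces of the compacted membrane together, and Mal is a lipid-raft protein that carries cargo to the sheath. Mag and Mog stand on the inner and the outer surface of the sheath. Cnp and Ermn work at the cytoskeleton of the channels that stay open, and Ugt8a makes galactosylceramide, a major lipid of myelin. Bcas1 is a myelin-associated protein that also marks cells beginning to myelinate.

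The upstream sequences of 4 of the genes are shown because the 9 genes varied together from library to library, as described further on, and because Sox10 and Myrf are known to act on genes of this kind. RefSeq promoter sequences (build GRCm38.p6) were found for 7 of the 9 genes, without Mbp and Bcas1. The windows run from 250 to 51 bases before a RefSeq start, are written 5′ to 3′ on the strand of the gene, and lie at chr9:120149492-120149691 (plus strand) for Mobp, chr7:30914914-30915113 (minus strand) for Mag, chr11:100574689-100574888 (plus strand) for Cnp and chr17:37023449-37023648 (minus strand) for Mog. Capitals mark matches, on either strand, to the SOX core ACAAAG or to CTGGNAC, a relaxed form of the Myrf motif in which N is any base.
Mobp: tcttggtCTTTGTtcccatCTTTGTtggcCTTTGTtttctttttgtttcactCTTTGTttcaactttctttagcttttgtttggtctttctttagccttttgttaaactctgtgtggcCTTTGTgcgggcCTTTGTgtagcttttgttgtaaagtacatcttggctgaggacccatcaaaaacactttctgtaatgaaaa
Mag: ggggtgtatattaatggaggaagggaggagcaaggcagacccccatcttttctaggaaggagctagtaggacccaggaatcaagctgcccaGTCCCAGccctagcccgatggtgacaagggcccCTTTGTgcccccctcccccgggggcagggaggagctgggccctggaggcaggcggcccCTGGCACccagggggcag
Cnp: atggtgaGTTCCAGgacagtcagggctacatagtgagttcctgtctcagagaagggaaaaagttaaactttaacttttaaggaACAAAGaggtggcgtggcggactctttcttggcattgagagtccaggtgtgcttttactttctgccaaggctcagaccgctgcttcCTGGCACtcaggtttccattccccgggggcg
Mog: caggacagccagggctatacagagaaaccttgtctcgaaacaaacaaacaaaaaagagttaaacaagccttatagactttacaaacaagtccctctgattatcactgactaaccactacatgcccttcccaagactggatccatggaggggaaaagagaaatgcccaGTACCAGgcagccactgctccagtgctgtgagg
The Mobp window held 6 matches to ACAAAG, all on the strand opposite the gene, between 243 and 120 bases before the start. The Mag window shown held 1 match to ACAAAG and 2 to CTGGNAC. RefSeq gives Mag 3 starts, and of the windows at the other 2, the first held 1 match to each motif and the second held none. That first window overlaps the one shown, and its matches are sites already marked there. The Cnp window held 1 match to ACAAAG and 2 to CTGGNAC. Mog had 1 match to CTGGNAC, 83 bases before its start. No match overlapped another in these windows. Of the 9 windows of the 7 genes, 4 held ACAAAG and 4 held CTGGNAC (3 genes each), where 13.6% and 13.2% of all 32851 promoter windows of the same length in the table held them. For each motif, 1 Mag site is counted in 2 of these windows. A second SOX core, ACAATG, was in 8.94% of all windows and in that of Ermn, and the windows of Mal and Ugt8a held none of the 3 motifs. A match is a description of letters and not a binding site.

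The libraries of set A held 20.34 to 28.05 M (mega) reads on genes and those of set B 6.09 to 11.07 M, and the authors scaled the sets separately, to 23.0 to 24.18 M and 8.21 to 8.69 M. A member had 1361 to 177476 reads in a library of set A and 683 to 90819 in one of set B, which makes counting error small next to library differences, although amplified reads are not independent molecules. Ppp1r1b, a signalling protein that defines medium spiny neurons, was at 66224 ± 1874 normalized counts (SD, n = 3) in WT and 23590 ± 3084 (n = 4) in GFP. Libraries stood apart by RNA of the choroid plexus, the secretory tissue of the neighbouring ventricle. Over 10 choroid plexus and ependymal markers, the summed normalized count was 295277 in Cas9 replicate 1 of set A, against 1210 and 3137 in the other Cas9 libraries of that set and 1265 to 1718 in WT. It was 12750 in GCas9 replicate 1 of set A, against 1891 and 4407 in the other GCas9 libraries. In set B it was 11046 in Cas9 replicate 1, against 513 to 867 in the other Cas9 libraries and 437 to 561 in GFP. Counts over the members and the main gene lists, and the correlations, are therefore also given without these 3 libraries.

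The myelin genes were among the more abundant RNAs of the tissue and together took 0.66 to 1.27% of gene reads (set A) or 1.02 to 1.4% (set B). Per kilobase of annotated exon (GENCODE M21, build GRCm38), Mbp was the highest in every group, with 12421 ± 1207 normalized counts per kb (SD, n = 3) in WT and 6992 ± 608 (n = 4) in GFP. Mobp came next, at 4561 ± 355 in WT and 2500 ± 194 in GFP. In WT, Mal (2693 ± 339 per kb) and Cnp (2524 ± 260 per kb) followed with overlapping ranges, then Mag (1695 ± 165) and Bcas1 (1473 ± 146), whose ranges also overlapped. Within each WT library, though, Mal was above Cnp and Mag above Bcas1. Mog (1006 ± 165), Ermn (554 ± 41.8) and Ugt8a (375 ± 43.8) closed the order in WT. In GFP the order was Cnp (1814 ± 58.4), Mag (783 ± 54.8), Mal (615 ± 60.3), Mog (539 ± 55.8), Bcas1 (475 ± 30.6), Ermn (263 ± 25.6) and Ugt8a (194 ± 29.2), where the libraries of Mal and Mog overlapped, as did those of Mog and Bcas1. The enzyme of galactolipid synthesis thus had the lowest RNA level per kb of the 9 genes in both controls.

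Among the proteins of compact myelin, Mbp is the one without which compact central myelin does not form. In set A, Mbp stood at 116535, 102353 and 96690 normalized counts in WT replicates 1 to 3, at 184550, 108207 and 153533 in Cas9 and at 101631, 95619 and 105651 in GCas9. Cas9 replicates 1 and 3 were above every other library of the set, and Cas9 replicate 2 lay inside the range of WT. In set B, Mbp stood at 53846, 64327, 55830 and 62841 in GFP, at 79780, 64320, 54605 and 73758 in Cas9 and at 58345, 71321, 72888 and 58030 in GCas9. The 3 groups of set B overlapped, although the highest pair was again made of Cas9 libraries.

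Mobp (chr9:120149707-120181484, plus strand), whose product lies in the major dense line of compact myelin, was also highest in Cas9 replicates 1 and 3 of set A. In set A it read 33606, 31373 and 28744 normalized counts in WT, 55012, 34897 and 45430 in Cas9 and 29287, 30982 and 30026 in GCas9. All 3 Cas9 libraries were above all 6 others. In set B it read 15236, 18233, 17189 and 17818 in GFP, 22502, 17902, 14610 and 21889 in Cas9 and 16456, 19386, 20623 and 17057 in GCas9. Here the Cas9 libraries held both the highest values and the lowest value of the set. Exons of Mobp overlap those of Gm38642 on the same strand, and reads in the shared stretch could be assigned to either.

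Mal (chr2:127633226-127656695, minus strand) showed the same split in set A. It read 8256, 7757 and 6433 normalized counts in WT, 14083, 8969 and 11024 in Cas9 and 7963, 7618 and 6451 in GCas9, with every Cas9 library above all others. In set B it read 1590, 1873, 1538 and 1827 in GFP, 1902, 1678, 1734 and 1850 in Cas9 and 1657, 2027, 2039 and 1767 in GCas9, where the groups overlapped and the 2 highest libraries were GCas9.

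**Figure D1:**
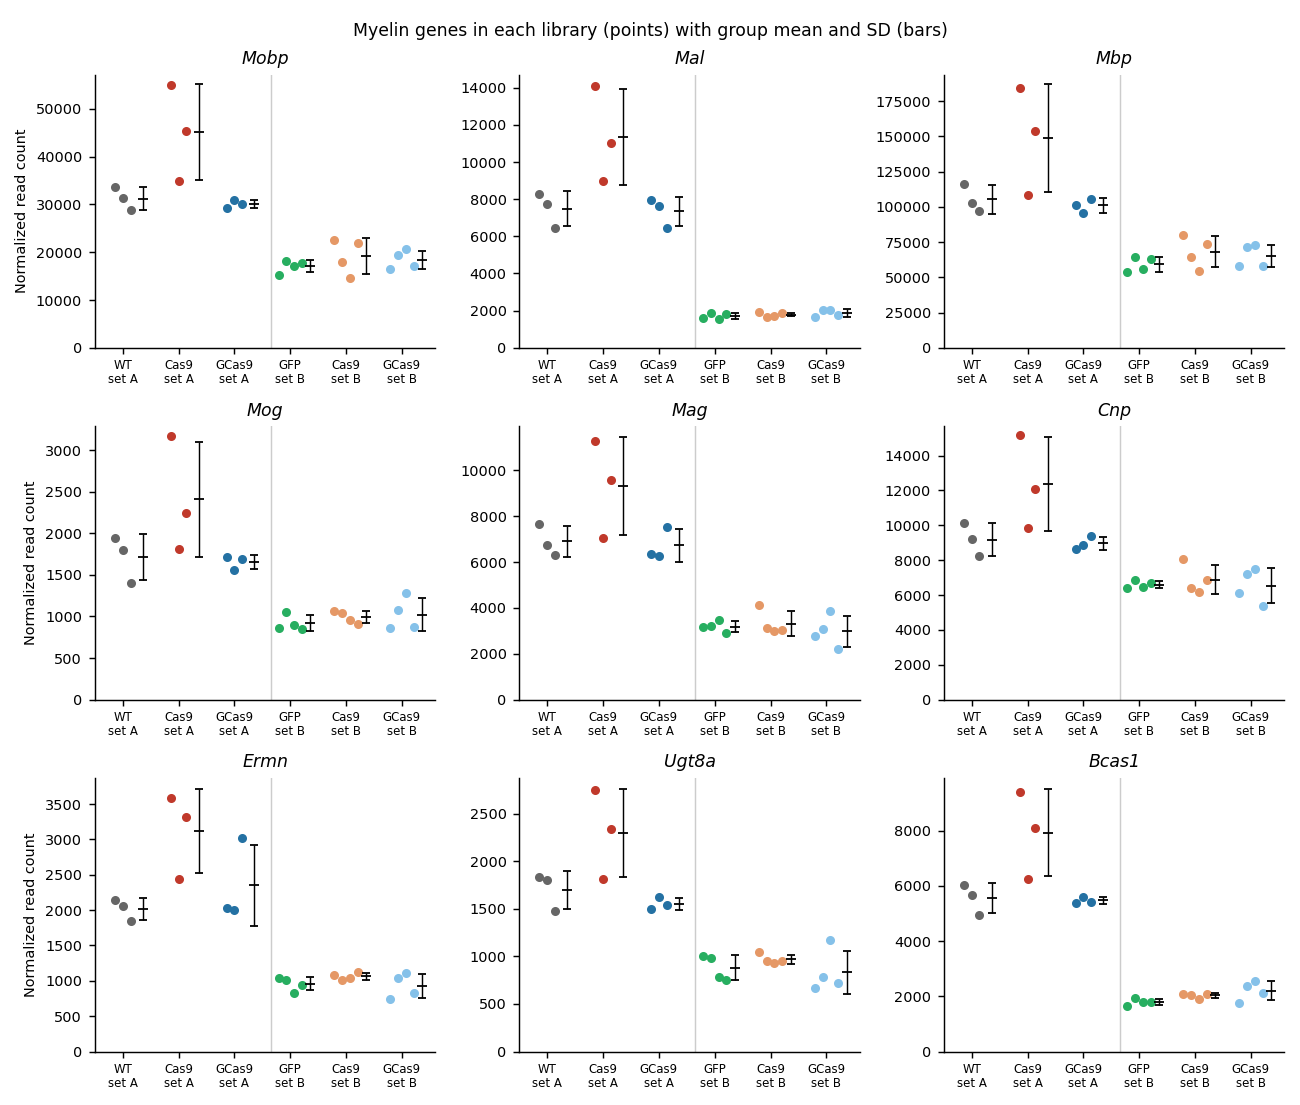
Normalized read count (vertical axis, starting at 0, 1 panel per gene) of the 9 myelin genes in the 21 libraries by group; points are libraries and bars the group mean ± SD. In set A the Cas9 libraries spread upwards from the WT range (for Mbp from 108207 to 184550), and in set B the groups overlap in every panel; sets were scaled separately and are not to be compared in level.

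On the surface of the sheath, Mag (chr7:30899176-30914873, minus strand), which faces the axon, read 7643, 6732 and 6328 normalized counts in WT of set A, 11298, 7039 and 9593 in Cas9 and 6362, 6270 and 7547 in GCas9. Cas9 replicate 2 lay inside the WT range. In set B it read 3150, 3214, 3463 and 2920 in GFP, 4131, 3144, 2978 and 3021 in Cas9 and 2779, 3076, 3849 and 2226 in GCas9, so that 1 Cas9 library stood above 3 close together and GCas9 spanned the widest range. Mog (chr17:37010743-37023398, minus strand), the outermost surface protein, was at 1714 ± 281 (SD, n = 3) in WT, 2408 ± 693 in Cas9 and 1657 ± 86 in GCas9 of set A, with Cas9 replicate 1 at 3167 and replicate 2 at 1809. In set B the Mog means were 918 ± 95.1 in GFP, 992 ± 69.6 in Cas9 and 1021 ± 197 in GCas9 (n = 4 each), with overlapping ranges.

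Of the genes that work at the cytoskeleton, Cnp (chr11:100574904-100591729, plus strand), a phosphodiesterase that keeps cytoplasmic channels open, was at 9183 ± 947 normalized counts in WT, 12359 ± 2686 in Cas9 and 8960 ± 370 in GCas9 of set A, and at 6600 ± 213, 6883 ± 848 and 6544 ± 986 in GFP, Cas9 and GCas9 of set B. Its exons overlap those of Dnajc7 on the other strand, which averaged 6134.5 normalized counts in set A, and the sources used here do not say whether counting used strand. Ermn (chr2:58045113-58052864, minus strand), an actin-binding protein of mature oligodendrocytes, read 2144, 2054 and 1848 in WT of set A, 3589, 2444 and 3319 in Cas9 and 2028, 2002 and 3016 in GCas9. GCas9 replicate 3 was high in Ermn, at 0.58 above the WT mean on the log2 scale, and at most 0.13 above it in the other members (Mag). Its ratio of Ermn to Mobp was 0.1, against 0.0638 to 0.0731 in the other libraries of set A. Galnt5, which overlaps Ermn on the other strand, averaged 0.2 normalized counts over all libraries of that set. The part of shared reads in the Ermn level of GCas9 replicate 3 was not tested. In set B, Ermn read 957 ± 93.1 in GFP, 1067 ± 48.8 in Cas9 and 930 ± 173 in GCas9.

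Ugt8a (chr3:125865271-125938619, minus strand), the galactosyltransferase of myelin lipid synthesis, read 1830, 1799 and 1471 normalized counts in WT, 2743, 1815 and 2334 in Cas9 and 1499, 1620 and 1539 in GCas9 of set A. Cas9 was above all GCas9 libraries, and its replicate 2 lay inside the WT range. In set B, Ugt8a read 1003, 983, 778 and 753 in GFP, 1042, 949, 925 and 952 in Cas9 and 669, 782, 1167 and 717 in GCas9, where the Cas9 libraries were the tightest and GCas9 held both ends of the range. Bcas1 (chr2:170346991-170427845, minus strand) read 6044, 5674 and 4962 in WT, 9417, 6267 and 8100 in Cas9 and 5395, 5608 and 5427 in GCas9 of set A, with every Cas9 library above all 6 others. In set B it read 1656, 1939, 1792 and 1783 in GFP, 2079, 2060, 1891 and 2095 in Cas9 and 1765, 2383, 2573 and 2107 in GCas9, where all Cas9 libraries and 3 of 4 GCas9 libraries were above the GFP mean of 1793 and the ranges overlapped. The antisense genes Bcas1os1 and Bcas1os2 overlap its exons and averaged 334.8 and 95.9 normalized counts in set B against 3.1 and 9.2 in set A.

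The spread between libraries was widest in Cas9 of set A for all genes but Ermn, and in GCas9 of set B for all but Mobp and Mbp. In Cas9 of set A the coefficient of variation over 3 libraries was 19.2 to 28.8% across the 9 genes, against 7.54 to 16.4% in WT. In GCas9 it was 2.1 to 10.8% for 8 genes and 24.6% for Ermn. In set B the coefficients were 3.22 to 15.0% in GFP, 4.58 to 19.2% in Cas9 and 10.2 to 27.2% in GCas9.

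Whether Cas9 went with a different level of myelin RNA than the WT label was asked in set A. All 9 genes had a higher mean in Cas9, where 49.1% of all genes did, by 0.41 to 0.61 on the log2(normalized count + 1) scale, but none passed an adjusted p under 0.05 (limma, Benjamini-Hochberg over all genes tested). The highest differences were those of Ermn (0.61 ± 0.18, SE, 1.53-fold, adjusted p = 0.405 by limma), Mal (0.59 ± 0.16, 1.5-fold, adjusted p = 0.405), Mobp (0.51 ± 0.15, 1.42-fold, adjusted p = 0.405) and Bcas1 (0.5 ± 0.13, 1.41-fold, adjusted p = 0.405). Mbp was higher by 0.47 ± 0.19 (adjusted p = 0.409 by limma), and Mag and Cnp, at the low end, by 0.41 ± 0.16 and 0.41 ± 0.14. In the whole table limma called 1 gene of 15924 (0.00628%) in this comparison. At an unadjusted p under 0.05 all 9 genes were higher in Cas9, where 6.17% of all genes tested were, and the libraries of 4 (Mobp, Mal, Ermn and Bcas1) did not overlap between the groups, against 10.7% of all genes. DESeq2 on the recovered reads called 3 of the 9, Mobp, Mal and Bcas1 (adjusted p = 0.0377, 0.0421 and 0.04), edgeR called none, and limma with a weight per library called 8 (all but Mog), in a fit that called 2570 genes.

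The size of the difference depended on single libraries. The median over the 9 genes was 0.47, beside 0 over all genes tested, and it was 0.3 without Cas9 replicate 1, the library rich in choroid plexus RNA, and 0.66 without Cas9 replicate 2. All 9 genes stayed above WT whichever library was left out. Without Cas9 replicate 1 the number at an unadjusted p under 0.05 was 5, where 6.08% of all genes had such a p in either direction. Without WT replicate 3, the WT library lowest in all 9 genes, the number was 4, where 7.04% of all genes had such a p. With all libraries 11.8% of all genes had it. Without both Cas9 replicate 1 and GCas9 replicate 1, whose libraries share the fit, 4 of 9 had such a p and the median was 0.3. In that fit 420 of 15879 genes were higher at such a p. Of 12 genes listed for activated microglia and macrophages, immune cells of the brain, 12 were higher in Cas9 (median 1.58) and 11 in GCas9 (median 1.72). They summed to 34893 to 38194 normalized counts in WT, 44063 to 56655 in Cas9 and 44634 to 55026 in GCas9. The most abundant genes of the list weigh most in this sum. Among the 12, Gpnmb, a glycoprotein of lipid-laden phagocytes, rose by 2.94 ± 0.28 in Cas9 (adjusted p = 0.0383 by limma) and by 3.31 ± 0.28 in GCas9 (adjusted p = 0.0142). The part of these cells in the myelin RNA levels was not tested. In tissue RNA, more oligodendrocytes and more RNA per oligodendrocyte cannot be told apart.

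**Figure D2:**
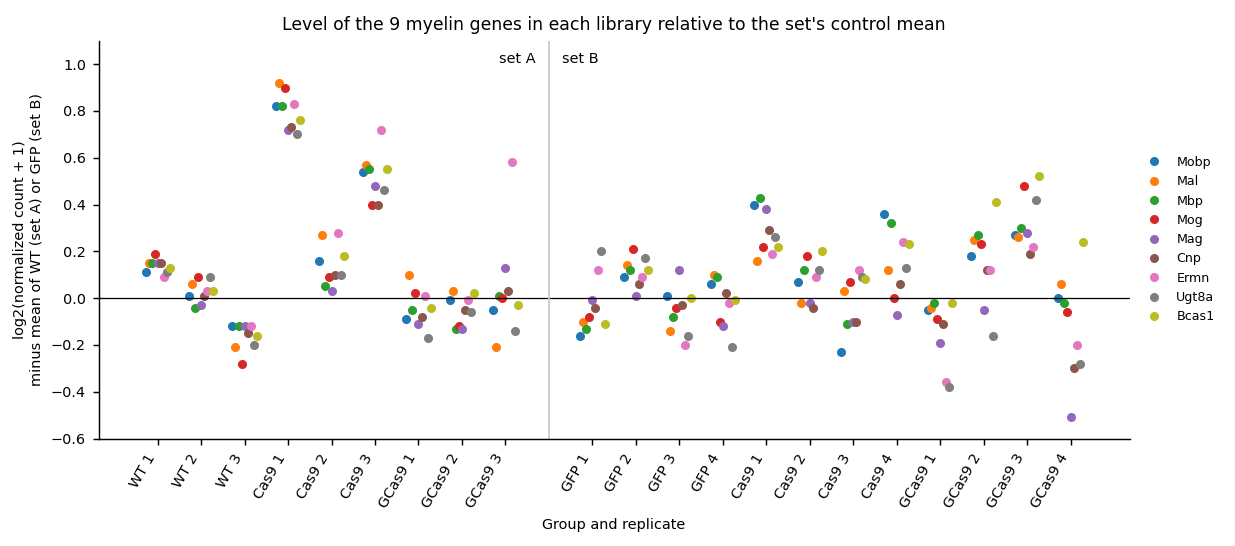
Level of each of the 9 myelin genes (colours) in each library (horizontal axis), as log2(normalized count + 1) minus the mean of WT in set A or of GFP in set B. In Cas9 of set A the mean of the 9 genes lay at 0.8, 0.14 and 0.52 in replicates 1 to 3, with the 9 points of a library spanning 0.7 to 0.92 in replicate 1; the points lay widest apart in GCas9 replicate 3 of set A (-0.21 for Mal to 0.58 for Ermn) and GCas9 replicate 4 of set B (-0.51 for Mag to 0.24 for Bcas1).

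GCas9 was compared with the same WT libraries, so this comparison shares its controls with the one above. The 9 genes lay close to WT: the differences ran from -0.12 (Ugt8a) to 0.2 (Ermn), 1 of 9 was above 0, where 49.9% of all genes were, and the median was -0.04. None passed the threshold (smallest adjusted p = 0.824 by limma), while limma called 0.00628% of all genes. At an unadjusted p under 0.05 there were 0 of 9 with limma, edgeR or DESeq2, where limma had 6.77% of all genes. The 95% intervals of the 9 differences reached from -0.48 (Mbp) to 0.61 (Ermn). Without GCas9 replicate 1, the library of this group with the most choroid plexus RNA, 1 of 9 was above 0 and the median was -0.03. Bcas1 stood at 5477 ± 115 in GCas9 against 5560 ± 550 in WT.

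GCas9 and Cas9 of set A were then compared directly. All 9 genes were lower in GCas9, where 54.3% of all genes were higher, and the differences ran from -0.42 (Ermn) to -0.61 (Mal) on the log2 scale, with Ugt8a at -0.55 ± 0.14 (0.685-fold), Mobp at -0.56 ± 0.15 (0.679-fold) and Mbp at -0.53 ± 0.19 (0.694-fold). None passed the threshold (adjusted p = 0.89 to 0.914 by limma), and limma called 0% of 15924 genes, of which 868 had an unadjusted p under 0.05. At an unadjusted p under 0.05 all 9 were lower, where 3.07% of all genes were. For 7 of the 9, all but Mag and Ermn, every GCas9 library was below every Cas9 library, against 4.45% of all genes. The median was -0.51, beside 0.01 over all genes, and moved between -0.69 without Cas9 replicate 2 and -0.35 without Cas9 replicate 1. Without Cas9 replicate 1, or without GCas9 replicate 2, 5 of the 9 had an unadjusted p under 0.05. Of all genes, 4.24% and 6.62% had such a p in either direction in these fits, against 5.45% with all libraries. Without GCas9 replicate 1, or without Cas9 replicate 3, 6 of the 9 did, beside 3.57% and 3.46% of all genes. Without both replicates rich in choroid plexus RNA, Cas9 replicate 1 and GCas9 replicate 1, 4 did, all 9 were still lower and the median was -0.36. In that fit 193 of 15879 genes were lower at such a p. DESeq2 and edgeR called none of the 9, and limma with library weights called 8 (all but Mog), with 932 genes in all.

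**Figure D3:**
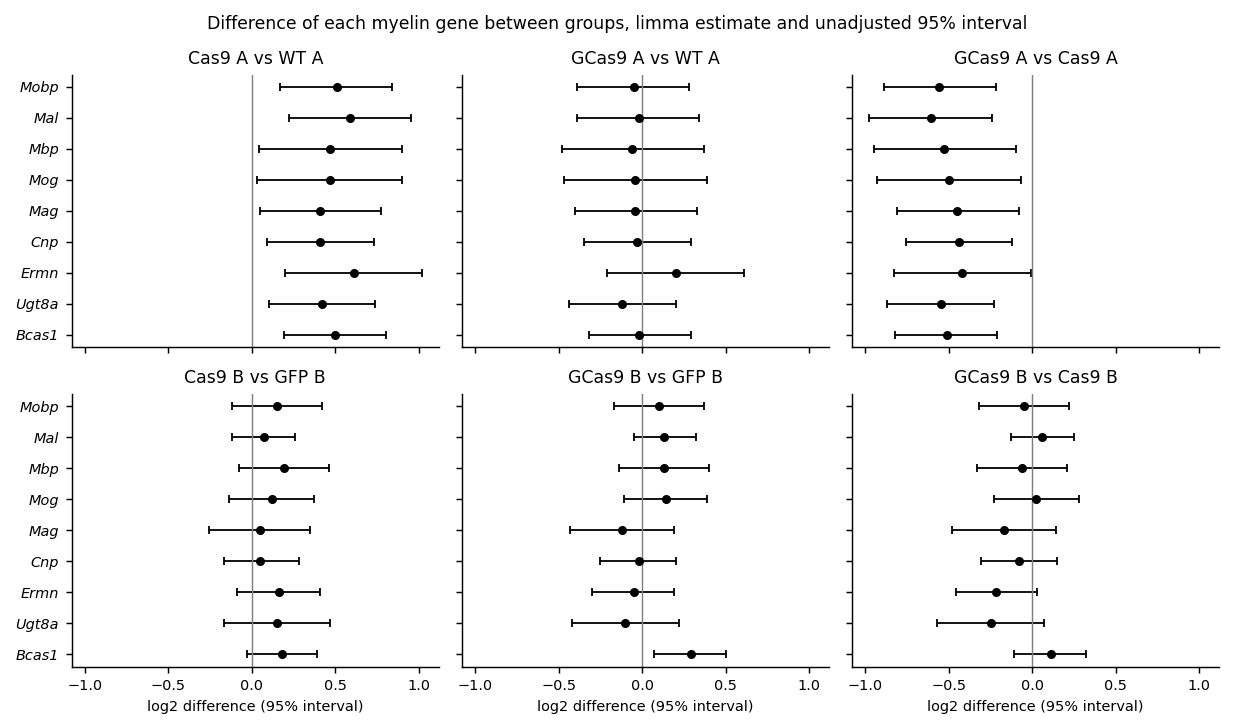
Log2 difference (horizontal axis) of each myelin gene in the 6 comparisons within a set; points are limma estimates and bars unadjusted 95% intervals. In the comparison of Cas9 with WT all 9 intervals lie above 0 and in that of GCas9 with Cas9 in set A all 9 lie below 0, while in set B only that of Bcas1 in GCas9 against GFP (0.07 to 0.5) leaves 0 out; none of the differences plotted passed the threshold after adjustment.

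In set B the control carried the label GFP. All 9 genes had a higher mean in Cas9 than in GFP, where 48.7% of all genes did, but the differences were small, from 0.05 (Mag and Cnp) to 0.19 (Mbp), with a median of 0.15 beside -0.01 over all genes. None passed the threshold (smallest adjusted p = 0.799 by limma, for Bcas1), limma called 0% of 15428 genes, and at an unadjusted p under 0.05 there were 0 of 9 members and 963 genes in all (6.24%). edgeR and DESeq2 likewise called none of the 9. The 95% intervals reached from -0.26 (Mag) to 0.47 (Ugt8a). Without Cas9 replicate 1, whose choroid plexus markers stood out and whose mean over the 9 genes was the highest of the group (0.28 above GFP), 7 of 9 were above GFP and the median was 0.08.

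In GCas9 of set B, 5 of 9 genes were above GFP (49.1% of all genes) and the differences ran from -0.12 (Mag) to 0.29 (Bcas1). None passed the threshold, and limma called 0% of all genes, of which 999 had an unadjusted p under 0.05. Bcas1 was the 1 member with an unadjusted limma p under 0.05 (0.29 ± 0.1, 1.22-fold, adjusted p = 0.721 by limma), where 3.71% of all genes were higher at that level. Its libraries overlapped those of GFP, since GCas9 replicate 1 stood at 1765 and GFP reached 1939. The 4 GCas9 libraries differed among themselves: the mean of the 9 genes lay at -0.14, 0.15, 0.33 and -0.12 relative to GFP in replicates 1 to 4. The 12 cortical neuron markers summed to 1736 to 2652 normalized counts in this group against 1242 to 1599 in GFP, and their part in the member levels was not tested. GCas9 against Cas9 of set B shares the Cas9 and GCas9 libraries with these comparisons; 3 of 9 genes were above 0 (50.6% of all genes), between -0.25 (Ugt8a) and 0.11 (Bcas1), with a smallest adjusted p of 0.995 by limma and 0% of all genes called. At an unadjusted p under 0.05 there were 0 of 9, against 3.84% of all genes. The count above 0 was 6 of 9 without Cas9 replicate 1, and the median 0.02, against -0.06 with it. edgeR and DESeq2 called none of the 9 in either comparison.

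The contrast of GCas9 with Cas9 is the one that both sets hold. Averaged over the sets in a fit of all 21 libraries, all 9 genes were lower in GCas9, where 52% of all genes were higher, with differences from -0.2 (Bcas1) to -0.4 (Ugt8a) on the log2 scale. None passed the threshold (adjusted p = 1 by limma), limma called 0% of 16094 genes, of which 598 had an unadjusted p under 0.05, and all 9 were lower at an unadjusted p under 0.05, where 1.78% of all genes were. Without Cas9 replicate 1 of set A, 5 of 9 had such a p, where 2.18% of all genes had it in either direction, against 3.72% with all libraries. Without all 3 libraries rich in choroid plexus RNA 2 of 9 had it, where 112 of 16028 genes were lower at such a p. In that fit all 9 were still lower, with a median of -0.17 against -0.29. The difference between the sets was tested in the same fit: it was 0.67 ± 0.18 for Mal, 0.62 ± 0.17 for Bcas1, 0.53 ± 0.23 for Mog and 0.51 ± 0.21 for Mobp, with the difference in set B minus that in set A above 0 for all 9 genes and for 49.4% of all genes tested. Within set B the differences of Mal (0.06), Bcas1 (0.11) and Mog (0.02) were above 0 and that of Mobp (-0.05) was below it. These 4 had an unadjusted p under 0.05, where 2.29% of all genes were higher in set B at that p, and none passed the threshold (adjusted p = 0.992 by limma, which called 0% of all genes and had 698 at an unadjusted p under 0.05). Only 2 of 9 had such a p without Cas9 replicate 1 of set A, where 3.57% of all genes had it in either direction, against 4.34% with all libraries. For Ermn the sets differed by 0.2 ± 0.22 (95% interval -0.25 to 0.66) and for Mag by 0.28 ± 0.23 (-0.21 to 0.76). Within the sets the median over the 9 genes was -0.51 in set A and -0.06 in set B. edgeR and DESeq2 called none of the 9 in the mean over the sets or in the difference between them.

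The proportions of the genes to each other were compared through their ratio to Mobp, and some of them differed between the sets. The ratio of Mal to Mobp within a library was 0.245 ± 0.0172 (SD, 9 libraries) in set A and 0.099 ± 0.0097 (12 libraries) in set B, with no overlap (0.215 to 0.272 against 0.0845 to 0.119). Bcas1 to Mobp was 0.179 ± 0.00418 in set A and 0.111 ± 0.0122 in set B, again without overlap. Cnp to Mobp ran the other way, at 0.289 ± 0.0139 in set A (0.266 to 0.312) and 0.368 ± 0.0329 in set B (0.313 to 0.423), without overlap. Mag to Mobp was 0.217 ± 0.0155 (0.202 to 0.251) and 0.175 ± 0.0243 (0.131 to 0.207), Ermn to Mobp 0.0707 ± 0.0116 (0.0638 to 0.1) and 0.0545 ± 0.00786 (0.0451 to 0.0711), and Ugt8a to Mobp 0.0523 ± 0.00225 (0.0499 to 0.0573) and 0.0494 ± 0.00892 (0.0403 to 0.0658), with overlap for all 3. Mbp to Mobp (3.33 ± 0.156 and 3.52 ± 0.132) and Mog to Mobp (0.0542 ± 0.00407 and 0.054 ± 0.00665) were near each other in the sets. A ratio within a library does not depend on its scaling, but the sets also differed in depth, control and the share of mitochondrial reads (6.0 to 7.57% and 1.03 to 2.18%), which cannot be told apart here. Genes overlapping members on the other strand differed too. In sets A and B, Bcas1os1 averaged 3.1 and 334.8 normalized counts, Bcas1os2 9.2 and 95.9, and Galnt5, over Ermn, 0.2 and 62.7. Dnajc7, over Cnp, averaged 6134.5 and 2237.7, and no annotated gene shares exons with Mal. The part of shared reads in the ratios was not tested.

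Library by library the members varied together, to differing degrees. After the mean of each group was removed, the 36 pairs of members had a median Pearson r of 0.9 over the 9 libraries of set A, from 0.3 (Mal and Ermn) to 0.99 (Mobp and Bcas1). Over the 12 libraries of set B the median was 0.67, from 0.37 (Mobp and Ugt8a) to 0.96 (Mobp and Mbp). Without the 3 libraries rich in choroid plexus RNA the medians were 0.85 over 7 libraries of set A (from 0.18, Mal and Ermn) and 0.69 over 11 of set B (from 0.33, Mal and Mag). Pairs share the library and its scaling, and the values are descriptions. With the mean of the other 8 over all 21 libraries (set means removed), a member's r ran from 0.8 for Ermn to 0.95 for Cnp, and over the other 18 libraries from 0.72 for Ermn to 0.91 for Cnp.

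Among 11644 genes with a mean of at least 50 in each set, those whose pattern was most like the mean of the 9, by the same measure, included Ndrg1 (r = 0.941), Gatm (0.94), Arsg (0.94), Plekhb1 (0.94), Sept4 (0.922), the deacetylase Sirt2 (0.921), Csrp1 (0.92), Fa2h, which hydroxylates the fatty acids of myelin lipids (0.917), and the lysophosphatidic acid receptor Lpar1 (0.914). Of these 9, 4 stood in the list of other mature oligodendrocyte genes (Arsg, Plekhb1, Sept4 and Fa2h). The median r over all 11644 genes was -0.03, and 96 of them (0.824%) reached the 0.8 of the lowest member. Over the 21 libraries the median r was 0.84 for 47 other mature oligodendrocyte genes, 0.7 for 9 transcription factors of the lineage, 0.7 for 7 markers of newly formed oligodendrocytes, 0.11 for 10 precursor markers and -0.16 for 17 medium spiny neuron markers. For 5 choroid plexus and ependymal markers it was 0.66. Over the 18 libraries without the 3 rich in choroid plexus RNA, the 9 genes just named had r from 0.83 to 0.92. The median r was then 0.75 for the other mature oligodendrocyte genes, 0.65 for the transcription factors, 0.44 for the newly formed markers, 0.01 for the precursor markers, 0 for the medium spiny neuron markers and 0.37 for the choroid plexus markers, beside -0.01 over all genes.

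**Figure D4:**
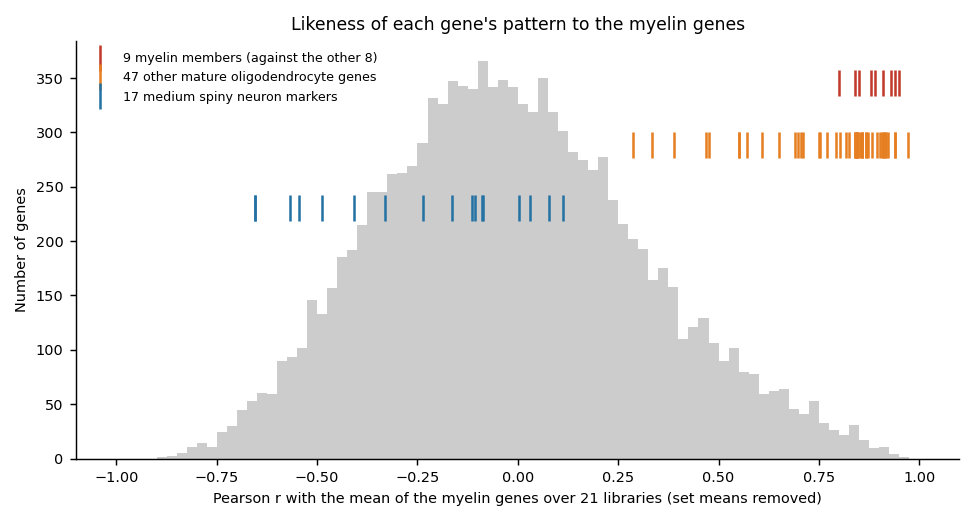
Number of genes (vertical axis) by Pearson r with the mean of the 9 myelin genes over 21 libraries, set means removed (horizontal axis); grey bars are all other genes with a mean of at least 50 in each set, and ticks are the members, other mature oligodendrocyte genes and medium spiny neuron markers. The members lie at 0.8 to 0.95, while medium spiny neuron markers lie at -0.65 to 0.11.

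The rest of the lineage was read from lists of genes that partly share members. In Cas9 against WT, all 48 other mature oligodendrocyte and myelin genes had a higher mean (median 0.42, beside 0 over all genes), 32 of them at an unadjusted p under 0.05 and 0 past the threshold. Without Cas9 replicate 1, 47 of 48 were higher (median 0.28) and 13 had such a p, where 456 of 15880 genes were higher at it. Without GCas9 replicate 1 as well, which shares the fit, 9 had such a p, where 420 of 15879 genes were higher at it. The tetraspanin Tspan2 (0.52 ± 0.13), the phosphatase inhibitor Ppp1r14a (0.63 ± 0.16) and the gap junction gene Gjc3 (0.45 ± 0.12) had the smallest p of this list (adjusted p = 0.405 by limma). Of 10 tested markers of newly formed oligodendrocytes all 10 were higher (median 0.43), with Enpp6 at 480 ± 102 against 295 ± 9.93 (0.68 ± 0.15, adjusted p = 0.405). All 10 were also higher without Cas9 replicate 1 (median 0.21). Of 11 transcription factors 10 were higher (median 0.32; 9 and 0.17 without Cas9 replicate 1), among them Olig2 (0.32 ± 0.09), Sox10 (0.34 ± 0.14) and Myrf (0.32 ± 0.15), and 0 passed the threshold. The 11 precursor markers were split 6 to 5 (median 0.06), and Pdgfra, the growth factor receptor of precursors, stood at 1302 ± 43.7 in Cas9 and 1250 ± 103 in WT. The summed precursor level was 14819 to 15517 in Cas9 and 15016 to 15277 in WT. Medium spiny neuron markers were lower in 16 of 17 in Cas9 (median -0.1), in 9 of 17 without Cas9 replicate 1 (median 0) and in 17 of 17 in GCas9 against WT (median -0.11), and 0 passed the threshold in any of these.

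A list of disease-associated oligodendrocyte genes, which includes immune and stress genes found in these cells in injured tissue, had the highest median of the oligodendrocyte lists in Cas9 of set A (0.73, 16 of 17 higher) and was as high in GCas9 against WT (0.73, 15 of 17 higher, 8 at an unadjusted p under 0.05), where the 9 myelin genes had a median of -0.04. Serpina3n, a serine protease inhibitor that reactive astrocytes also make, stood highest by p in both, at 3.49 ± 0.62 in Cas9 (adjusted p = 0.405 by limma) and 3.92 ± 0.62 in GCas9 (adjusted p = 0.383). None of the list passed the threshold. Its median in Cas9 was 0.52 without Cas9 replicate 1, and without GCas9 replicate 1 its median in GCas9 was 0.99. In set B it was -0.06 in Cas9 and -0.33 in GCas9 against GFP. Over the 21 libraries this list had a median r of 0.3 (from -0.79 to 0.73) with the mean of the 9 myelin genes. For microglia markers the median r was 0.36, and for other mature oligodendrocyte genes 0.84. Which cells made the RNA of this list was not tested.

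Lists of myelin lipid supply had lower medians. Of 14 tested galactolipid and sphingolipid genes, 13 were higher in Cas9 (median 0.24), among them the ceramide synthase Cers2 (0.35 ± 0.12), the desaturase Degs1 (0.23 ± 0.08) and Fa2h (0.36 ± 0.13). Of 19 cholesterol synthesis genes 13 were higher (median 0.08). None of these passed the threshold. In GCas9 against WT the same lists lay near 0: 21 of 48 other mature genes were higher (median -0.01), 5 of 11 transcription factors (median -0.07) and 7 of 14 lipid genes (median 0). In GCas9 against Cas9 of set A, 47 of the 48 other mature genes were lower (median -0.41, 29 at an unadjusted p under 0.05). Without Cas9 replicate 1, 45 were lower (median -0.26, 17 at such a p), where 280 of 15880 genes were lower at such a p. In set B, Cas9 had 35 of 48 other mature genes above GFP (median 0.07; 23 and 0 without Cas9 replicate 1) and GCas9 26 of 48 (median 0.02), with 0 past the threshold in either. The transcription factors, Sox10 and Myrf included, had medians of -0.02 and -0.1 in these comparisons. Outside the lineage, lists with larger medians in Cas9 of set A were those of microglia (0.7, 12 of 12 higher), activated microglia and macrophages (1.58, 12 of 12 higher) and choroid plexus and ependyma (1.72, 8 of 10 higher), against 0.47 for the 9 myelin genes. The choroid plexus median rested on Cas9 replicate 1, and without that library it was -0.07 (3 of 9 higher). Without it the medians were 0.56 for microglia, 1.29 for activated microglia and 0.3 for the 9 myelin genes. For microglia and activated microglia the medians were also high in GCas9 of set A, at 0.61 and 1.72, where that of the myelin genes was -0.04. Of the endothelial markers, genes of the vessel wall, 10 of 10 were higher in Cas9 than in WT (median 0.33, 6 at an unadjusted p under 0.05), the median was 0.08 in GCas9 against WT, and 10 of 10 were lower in GCas9 than in Cas9 (median -0.19). Their summed normalized counts were 8584 to 9293 in WT, 9755 to 11540 in Cas9 and 9146 to 9338 in GCas9. Astrocyte markers were higher in 11 of 11 in Cas9 (median 0.18, 6 at an unadjusted p under 0.05), in 7 of 11 in GCas9 against WT (median 0.12) and lower in 7 of 11 in GCas9 against Cas9 (median -0.16). Without Cas9 replicate 1, 10 of 10 endothelial (median 0.25) and 9 of 11 astrocyte markers (median 0.17) were higher in Cas9 than in WT. The part of these cells in the myelin RNA levels was not tested.

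**Figure D5:**
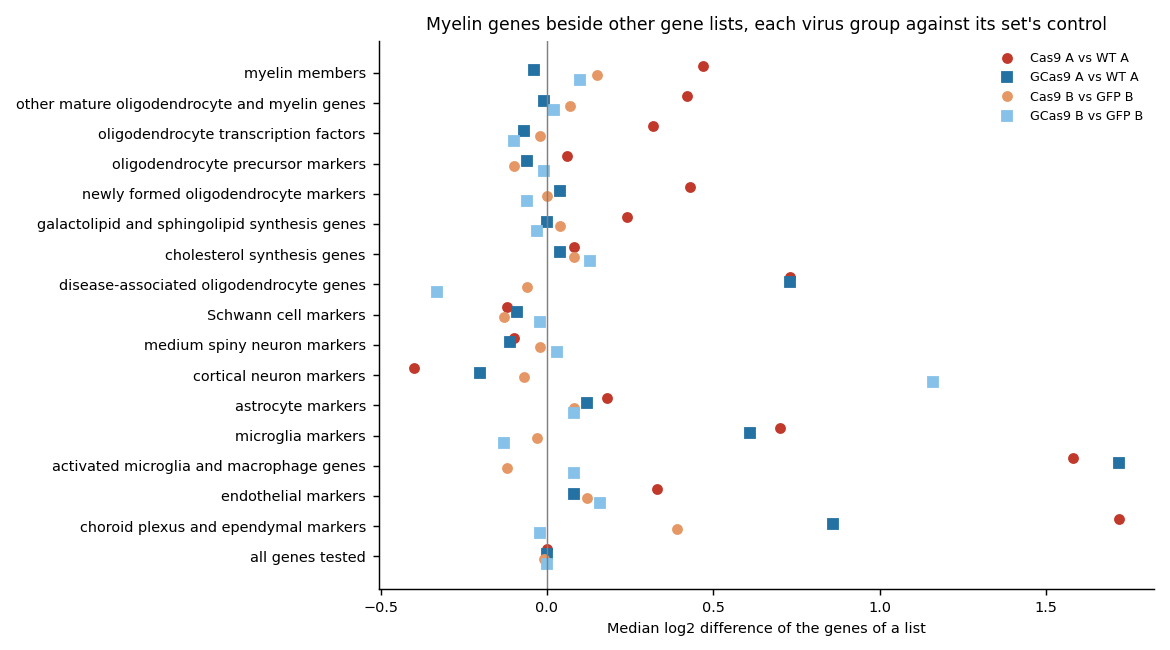
Median log2 difference (horizontal axis) of the myelin members, 15 other gene lists and all genes tested, for Cas9 and GCas9 against the control of their set (symbols). The members and the other mature, newly formed and transcription factor lists lie between 0.32 and 0.47 for Cas9 against WT of set A and at -0.1 to 0.15 for the other comparisons; precursor markers stay between -0.1 and 0.06 in all.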

How the data were processed

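Per the submitters' processing notes, the tools were STAR 2.5.2b, HTSeq, SAMtools, R 3.3.3 and DESeq2, on build GRCm38.p3; roles, annotation and strand setting are not given in the sources used here. Per the labels, cDNA came from a SMARTer kit and libraries from a Nextera XT kit, which amplify before sequencing. The deposited values are a signal per gene symbol that the authors made as read counts divided by a size factor per library (0.884 to 1.16 in set A, 0.719 to 1.303 in set B). All values came out as whole reads within 0.001 of a read; 13121 of 41128 symbols had none.

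With limma 3.58.1 (R 4.3.3, variance trend, two-sided), log2(normalized count + 1) was tested in genes with a mean of at least 10. Each set was fitted with its 3 groups, and all 21 libraries in another fit for GCas9 against Cas9 over both sets. P-values were adjusted by Benjamini-Hochberg over all genes, with a threshold of 0.05. edgeR 4.0.16 and DESeq2 1.42.0 on the recovered reads were alternatives. The procedure was run on simulated data in which genes varied independently. The members varied together between libraries, so that run does not bear on them. The members and lists were chosen with earlier results of these data known. All 9 members are named, with the genes of smallest p in each list, a fixed set of cell type genes and genes most like the members; some items under this rule are not reported here. Counts at an unadjusted p with libraries left out, and the lists and correlations without the libraries rich in choroid plexus RNA, were added after seeing the data.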

Additional observations from a re-analysis of the deposited data

Results flagged for a closer look

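A library that stood far from the rest of its group was looked for in the 27 combinations of a member and a group of 4 libraries, by the gap to the nearest library divided by the range of the group, and 2 combinations passed the 95% critical value of Dixon's test. Chance alone flags about 1 in 20 groups. Mag in Cas9 of set B had a ratio of 0.8558: replicate 1 stood at 4131 normalized counts, above 2978, 3021 and 3144. That library also had the highest choroid plexus sum of set B (11046), and without it the difference of Mag from GFP was -0.06, against 0.05 with it. Bcas1 in Cas9 of set B had a ratio of 0.8291: replicate 3 stood at 1891, below 2060, 2079 and 2095. The same library was the lowest of its group for Mobp (14610) and Mbp (54605). Groups of 3 were not examined in this way.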

How the results depend on the processing

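The median difference of the 9 genes kept its direction under all 9 alternative settings in Cas9 against WT (0.47 to 0.5), GCas9 against Cas9 of set A (-0.56 to -0.51) and Cas9 against GFP (0.08 to 0.15). It crossed or reached 0 in GCas9 against WT (-0.09 to 0.02), GCas9 against GFP (-0.03 to 0.14) and GCas9 against Cas9 of set B (-0.07 to 0). Not all of these settings could move the median, because an unweighted limma difference is a difference of group means. The changed filters on low values, the fit of only the groups compared and the replicate block leave it as it is. A larger pseudocount hardly moves it at these counts. The direction was thus tested by quantile normalization, edgeR, DESeq2 and library weights. With single libraries left out, the medians were 0.3 to 0.66 in Cas9 against WT, -0.11 to 0.04 in GCas9 against WT, -0.69 to -0.35 in GCas9 against Cas9 of set A, 0.08 to 0.19, 0.03 to 0.15 and -0.16 to 0.02 in the 3 comparisons of set B, -0.39 to -0.21 for the mean over the sets and 0.3 to 0.68 for the difference between them.

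Counts of called members moved from 0 to 3 (DESeq2) and 8 (library weights) in Cas9 against WT, and to 8 (library weights) in GCas9 against Cas9 of set A; the cause was not tested. Counts of all called genes moved more. In Cas9 against WT (1 gene) they were 0 with a pseudocount of 10 or edgeR, 116 with DESeq2, 2 with the replicate block, 2570 with library weights and 6 with only those groups fitted. In GCas9 against WT (1 gene) they were 218 with DESeq2, 2 with the block and 6 with library weights, and in GCas9 against Cas9 of set A (0 genes) 4 with DESeq2 and 932 with library weights. In set B (0 genes) they were 14 with DESeq2 in Cas9 against GFP, and 41 with DESeq2, 5 with the block, 12 with library weights and 7 with only those groups fitted in GCas9 against GFP. With no filter, 4 genes were called in the mean over the sets and 1 in the difference. With single libraries left out, the counts ran from 0 to 7 in Cas9 against WT, 0 to 2 in GCas9 against WT and Cas9 against GFP, 0 to 1 in GCas9 against Cas9 of set A, the mean over the sets and the difference between them, and 0 to 3 in GCas9 against GFP.

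Differences that changed sign were all small. In GCas9 against WT, quantile normalization gave 0.04 (Mal), 0.02 (Mag), 0.03 (Cnp) and 0.04 (Bcas1), and library weights 0.02 (Mal). In GCas9 against GFP, quantile normalization gave -0.03 (Mobp) and library weights 0.03 (Cnp), 0.01 (Ermn) and 0.01 (Ugt8a), and in GCas9 against Cas9 of set B library weights gave 0.01 (Mobp). With single libraries left out, GCas9 against WT spanned -0.13 to 0.07 (Mal), -0.11 to 0.02 (Mbp), -0.18 to 0.06 (Mog), -0.12 to 0.04 (Mag), -0.11 to 0.04 (Cnp) and -0.1 to 0.05 (Bcas1). Cas9 against GFP spanned -0.06 to 0.1 (Mag) and -0.03 to 0.1 (Cnp), GCas9 against GFP -0.25 to 0.01 (Mag), -0.09 to 0.07 (Cnp) and -0.15 to 0.05 (Ermn), and GCas9 against Cas9 of set B -0.17 to 0.03 (Mobp), -0.16 to 0.02 (Mbp), -0.09 to 0.1 (Mog) and -0.15 to 0.01 (Cnp).

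Same-numbered libraries of different groups had deviations with r from -0.02 to 0.64 (median 0.2) within set A and from -0.13 to 0.46 (median 0.12) within set B, against medians of -0.13 and -0.05 for different numbers. In set A 7 of 9 libraries and in set B 8 of 12 correlated best with a library of their own number, a hint of pairing from the data. Since the labels name nothing shared by a number and some same-numbered pairs had a negative r, the numbers were not taken as pairs. The replicate block called 0 of the 9 members in all comparisons. Every group of a set holds the same replicate numbers, so the block could not move the medians. They stayed at 0.47 in Cas9 against WT and -0.51 in GCas9 against Cas9 of set A. With 3 or 4 libraries a group, the 95% intervals given with the differences show their precision.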
